A study of Mus musculus with 18 samples.

Results

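The liver late after partial hepatectomy was set against the sham-operated liver, to see which genes had not come back to the sham level. The late group joins the 4 RNA-seq libraries taken 120 h and 168 h after the operation, 2 at each time, and is compared with the 2 sham libraries, so 6 of the 18 libraries of the time course entered the tests. Group membership came from the sample labels alone. All mice were C57BL/6. The late mice had 2/3 of the liver removed and the sham mice had a sham operation. Each library is RNA from a pool of 3 mice, so the late group stands for 12 mice and the sham group for 6, and no transgene, deletion or drug is named for either. The labels used here call the sham pools control, with no collection time and no sex. The p-values measure the spread between these pools, not between single mice.

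Partial hepatectomy is the classic model of liver regeneration: the lobes left behind grow by division of hepatocytes, followed by the non-parenchymal cells, until the liver is near its former mass. Kupffer cells are the resident macrophages of the liver, stellate cells store retinoids and make extracellular matrix, and hepatocytes carry out metabolism and secrete the plasma proteins. Late in regeneration division winds down and the metabolic programme of the resting liver is rebuilt. In bulk liver, fewer cells of a type and less RNA per cell cannot be told apart.

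The 6 libraries held 7.78 to 9.16 M uniquely mapped reads (M, 1000000). The table of sham replicate 2 ends early: it lists 8026 genes, the lowest with 52 reads, and its unlisted reads are 1.14% of the total. A gene missing there is unknown, not 0, with an upper bound of 6.54 CPM (reads per 1000000 reads of the library). The main test therefore covered 8025 genes listed in both sham tables and past a filter on low reads, so it holds few genes that are scarce in sham; 3621 further genes were tested against sham replicate 1 alone and are given last. The 8 hepatocyte markers summed to 136651 to 167550.0 CPM in the late pools, against 128600.0 and 133192 CPM in sham, so the defining markers of the labelled tissue were abundant in every pool. Exons of Col4a1 and Col4a2, Ccnd1 and LTO1, Igtp and Irgm2, Psme1 and Emc9, Elovl3 and Pitx3, and Serpina3k and Serpina3m overlap in the annotation, and the counting is not stated to use strand, so part of their reads is uncertain.

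Of the 8025 genes, 448 were higher (5.58%) and 752 lower (9.37%) in late liver than in sham, 15% in all (edgeR quasi-likelihood test, Benjamini-Hochberg adjusted p under 0.05). Calls in the gene lists below are read against these shares of all genes tested. Most of the differences were small. An estimate of 2-fold or more was reached by 208 of the 1200 called genes, and the whole 95% interval lay beyond 2-fold for 40 genes, 15 higher and 25 lower. For 7033 genes (87.6%) the interval of the log2 fold change lay inside -1 to 1, that is within 2-fold of sham, and 587 called genes were among them. A further 379 genes were neither called nor bounded within 2-fold. The counts rest on few pools. They were 589 higher and 1143 lower with 120 h replicate 1 left out, 289 and 580 with replicate 2 of that time left out, 242 and 435 with 168 h replicate 1 left out, and 261 and 418 with replicate 2 of that time left out. Leaving out sham replicate 1 gave 18 and 28, and leaving out sham replicate 2 gave 72 and 193.

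The fold changes also moved with the base composition of the genes. Genes called higher had a median GC content of 53.7% and genes called lower 42.1%, against 49.4% over all genes tested. Across 8010 genes with a GC value, which come from the same libraries and are not independent, log2 fold change and GC content had a Spearman correlation of 0.55. The sham pools also differed from each other along GC content, with a correlation of -0.31 for replicate 1 over replicate 2. In the decile of genes with the lowest GC content the median log2 fold change was -0.47 and 39.7% were called lower. With a correction for GC content in each library 296 genes were higher (3.7%) and 245 lower (3.06%), 6.75% in all. The intervals of 7410 genes (92.5%) then lay within 2-fold of sham. In total 440 genes, 225 higher (2.81%) and 215 lower (2.68%), were called both with and without it (5.49%). The part of GC content in the other calls was not tested further.

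**Figure D1:**
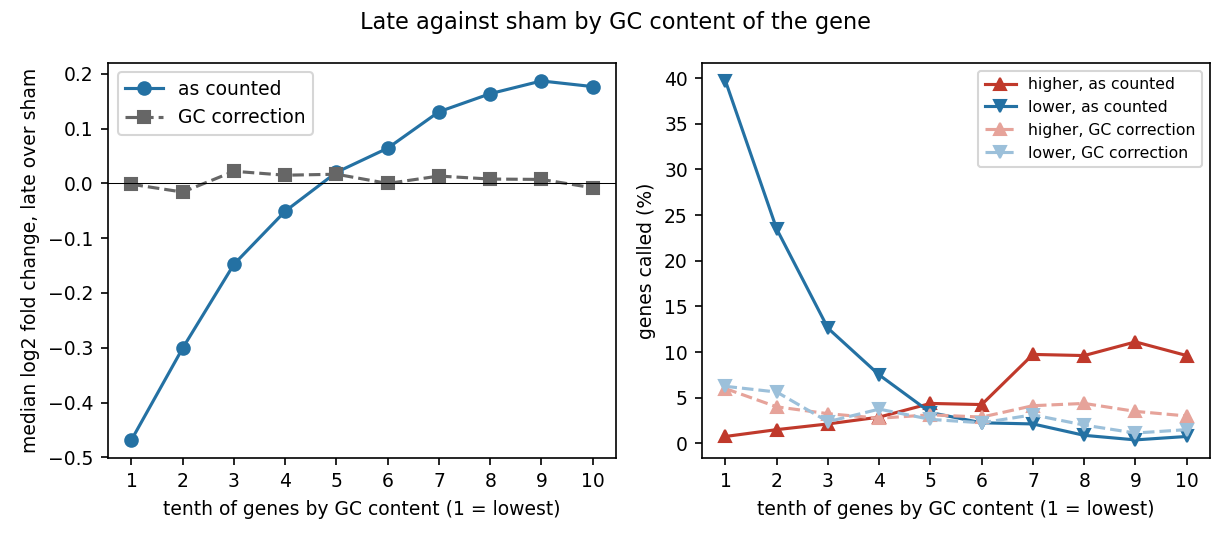
Late against sham by GC content of the gene, in deciles of the genes from low to high GC. The median log2 fold change (late over sham) is -0.47 in the lowest decile and 0.18 in the highest as counted and near 0 after the GC correction, and the percentage called lower in the lowest decile is 39.7% as counted and 6.24% after it.

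A group of 36 genes kept its call and direction whichever of the 6 libraries was left out, with the GC correction, with 17 libraries in the fit, in DESeq2 and in limma-trend; it was formed after the values were seen. The 15 higher genes were Marco, Col1a1, Lpl, Vim, Col3a1, Tmsb10, Lgals1, Cd5l, Sparc, Col4a1, Tagln2, Anxa2, Ccnd1, Col4a2 and Lamc1. The 21 lower genes were Mup3, Mup5, Mup6, Mup9, Mup11, Mup12, Mup16, Mup17, Mup20, Mup21, Moxd1, Gdf15, Fos, Cyp2c37, Cyp3a25, Tdo2, Abca6, Klf9, Eif2s3y, Gm4956 and LOC100048884. They are called the 36 stable calls below. Of 153 called genes examined one by one, 121 lost the call without sham replicate 1 and 97 without sham replicate 2, fits that leave a lone sham pool. Every one of them kept the sign of its log2 fold change there, which moved by a median of 0.105 and 0.104. Where all late pools lie on 1 side of both sham pools, the sign could not turn, so this is no check of those genes. The rule for the largest rises and falls required that. A lost call below is given by its adjusted p, and the fold is given where it moved by more than 1.5 times.

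Markers of resident macrophages were higher in late liver. Of the 9 Kupffer cell and macrophage markers, all tested, 8 were higher and none lower, with a median log2 fold change of 1.05, against 0.02 over all genes tested, and 7 of the 8 were also called with the GC correction. In all 9 the late pools lay above both sham pools, which 21.0% of all genes tested did. The summed level was 1033 to 1549 CPM in the late pools, against 583 and 587 CPM in sham, and no marker was at 0. Marco, a scavenger receptor of macrophages (chr1:120474538-120505024, GRCm38), had 132 and 126 CPM at 120 h and 192 and 177 CPM at 168 h, against 22.2 and 14.7 CPM in sham. The highest sham pool was far below the lowest late pool (log2 fold change 3.08 ± 0.24, adjusted p = 0.000423; 2.92 with the GC correction). Cd5l, a protein secreted by Kupffer cells, had 316 and 384 CPM at 120 h and 331 and 458 CPM at 168 h, against 122 and 135 CPM in sham (1.53 ± 0.16, adjusted p = 0.00169). Its late pools were likewise all above sham, and both genes are among the 36 stable calls.

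C1qa, a chain of the first complement component that tissue macrophages make, had 99.7 and 141 CPM at 120 h and 116 and 158 CPM at 168 h, against 68.3 and 76.01 CPM in sham (0.84 ± 0.18, adjusted p = 0.0172), and the partner chain C1qc rose by 1.05 on the log2 scale. C1qb, Emr1, which encodes the F4/80 antigen, and Timd4, a receptor for dying cells, were also called higher. Clec4f, a lectin of Kupffer cells, was called as counted (0.58 ± 0.14, adjusted p = 0.0245) and not with the GC correction (adjusted p = 0.0574). The call of Timd4 was lost without 120 h replicate 2 (adjusted p = 0.0746). The call of Timd4 was lost without 168 h replicate 1 (adjusted p = 0.0635). The call of Timd4 was lost without 168 h replicate 2 (adjusted p = 0.0659). The calls of C1qa, C1qb, C1qc, Emr1, Timd4 and Clec4f were lost without sham replicate 1 (adjusted p = 0.107 to 0.195). The calls of C1qa, C1qb, C1qc, Emr1, Timd4 and Clec4f were lost without sham replicate 2 (adjusted p = 0.0658 to 0.211). The number of these markers called was 9 with 120 h replicate 1 left out, 7 with replicate 2 of that time left out, 7 and 7 with 168 h replicate 1 or 2 left out, and 2 and 2 with sham replicate 1 or 2 left out. Markers of neutrophils and monocytes, of B cells and of T and NK cells are not listed in sham replicate 2 and were not in the main test. They summed to 15.2 to 28.3 CPM, 2.06 to 3.84 CPM and 5.50 to 13.6 CPM in the late pools, against 15.8, 4.002 and 4.002 CPM in sham replicate 1. Against that pool alone, 6 neutrophil and monocyte and 5 T and NK cell markers were compared, and no B cell marker passed the filter. Their median log2 fold changes were 0.30 and 1.51, against 0.15 over all 3621 such genes. All 4 late pools were above sham replicate 1 in 2 of the 6 and 2 of the 5, against 1221 of the 3621. All these genes are scarce in sham replicate 2. Those scarce in sham replicate 1 too could pass the read filter only through the late pools. Such medians therefore lean to a rise.

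Genes of the extracellular matrix were the next group of rises. Of 29 listed, 16 were tested, 13 were higher and none lower (median 0.86), and 11 of the 13 were called with the GC correction too. Col1a1, the main chain of fibrillar type I collagen (chr11:94936224-94953042), had 37.1 and 30.9 CPM at 120 h and 30.9 and 26.6 CPM at 168 h, against 7.74 and 7.93 CPM in sham (2.00 ± 0.17, adjusted p = 0.000524). Col3a1, a fibrillar collagen laid down beside it, had 109 and 71.2 CPM at 120 h and 88.9 and 69.8 CPM at 168 h, against 28.5 and 25.2 CPM in sham (1.66 ± 0.20, adjusted p = 0.00271). The late and sham pools of both genes were well apart, with 120 h replicate 1 the highest. Col4a1, a chain of basement membrane collagen, had 129.5 and 118 CPM at 120 h and 124 and 104 CPM at 168 h, against 47.3 and 44.9 CPM in sham (1.36 ± 0.11, adjusted p = 0.000524), and its neighbour Col4a2 rose by 1.24 on the log2 scale. Sparc, a secreted protein that binds collagen, had 264 and 212 CPM at 120 h and 216 and 228 CPM at 168 h, against 88.5 and 73.6 CPM in sham (1.505 ± 0.13, adjusted p = 0.000684). The laminin chain Lamc1 had 35.97 to 39.99 CPM in the late pools, against 18.9 and 19.1 CPM in sham (1.01 ± 0.11, adjusted p = 0.00205). No late pool of these genes overlapped with sham, and all 6 are among the 36 stable calls. The number of matrix genes called higher was 13 with 120 h replicate 1 left out, 13 with replicate 2 of that time left out, 13 and 12 with 168 h replicate 1 or 2 left out, and 6 and 7 with sham replicate 1 or 2 left out.

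The markers of stellate cells and fibroblasts moved both ways. Of 6 tested, the collagens Col1a1, Col1a2 and Col3a1 were higher, whereas Lrat, which esterifies retinol in resting stellate cells, had 9.26 to 12.7 CPM in the late pools, against 20.7 and 17.7 CPM in sham (-0.82 ± 0.16, adjusted p = 0.0146) and an adjusted p of 0.0731 with the GC correction. The calls of Col1a2 and Lrat were lost without sham replicate 1 (adjusted p = 0.074 to 0.17). The call of Lrat was lost without sham replicate 2 (adjusted p = 0.0503). Of 7 sinusoidal endothelial markers, Pecam1 was higher with and without the GC correction (0.50 ± 0.10, adjusted p = 0.0167), and the 95% intervals of all 7 lay within 2-fold of sham. The call of Pecam1 was lost without sham replicate 1 (adjusted p = 0.157). The call of Pecam1 was lost without sham replicate 2 (adjusted p = 0.0948).

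Genes of fetal liver and progenitors, several of them cytoskeletal, were higher as well. Of 19 listed, 7 were tested and 6 were higher with and without the GC correction (median 0.99). Vim, the intermediate filament of mesenchymal cells, had 53.4 and 59.5 CPM at 120 h and 42.3 and 70.1 CPM at 168 h, against 16.9 and 16.9 CPM in sham (1.74 ± 0.20, adjusted p = 0.00237). Lgals1, a lectin that binds galactosides, had 37.5 and 29.5 CPM at 120 h and 41.9 and 36.2 CPM at 168 h, against 11.7 and 13.1 CPM in sham (1.55 ± 0.17, adjusted p = 0.00169). All late pools of both were above sham. Anxa2 and Anxa5, which bind membranes in a calcium-dependent way, rose by 1.30 and 0.87 on the log2 scale, and the simple epithelial keratins Krt8 and Krt18 were the other members called. The calls of Anxa5, Krt8 and Krt18 were lost without sham replicate 1 (adjusted p = 0.0723 to 0.187). The call of Krt18 was lost without sham replicate 2 (adjusted p = 0.0529). The number called was 6 with 120 h replicate 1 left out, 6 with replicate 2 of that time left out, 6 and 6 with 168 h replicate 1 or 2 left out, and 3 and 5 with sham replicate 1 or 2 left out. Afp, the fetal albumin-like plasma protein, was low, with 1.63 and 1.75 CPM at 120 h and 1.88 and 1.63 CPM at 168 h, against 1.54 CPM in sham replicate 1.

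Cell cycle genes had not all reached the sham level. Ccnd1, the G1 cyclin that hepatocytes induce on entering the cycle, had 97.9 and 102 CPM at 120 h and 79.1 and 75.4 CPM at 168 h, against 39.7 and 32.7 CPM in sham (1.29 ± 0.16, adjusted p = 0.00281). Every late pool was above sham, with 120 h above 168 h, and Ccnd1 is among the 36 stable calls. Of 28 genes of DNA replication and G1/S, 8 were tested, and Ccnd1 and Mcm6 were higher, also with the GC correction. The other 6 were not called. The 8 ran from -0.78 to 1.29 on the log2 scale, with a median of 0.44. Mcm6, a subunit of the replicative helicase, had 25.5 and 17.1 CPM at 120 h and 23.6 and 19.7 CPM at 168 h, against 11.99 and 9.31 CPM in sham (1.01 ± 0.20, adjusted p = 0.0149). Of 35 mitosis genes, 4 were tested and all 4 were higher: Stmn1, Tubb5, Ube2s and Tuba1b, of which Stmn1 and Ube2s were called with the GC correction. Stmn1, which destabilises microtubules, had 49.4 and 22.5 CPM at 120 h and 33.3 and 28.4 CPM at 168 h, against 14.9 and 12.6 CPM in sham (1.28 ± 0.29, adjusted p = 0.0223). The call of Tuba1b was lost without 120 h replicate 2 (adjusted p = 0.0508). The calls of Tubb5, Ube2s and Tuba1b were lost without 168 h replicate 1 (adjusted p = 0.0565 to 0.0706). The call of Tuba1b was lost without 168 h replicate 2 (adjusted p = 0.0603). The calls of Mcm6, Stmn1, Tubb5, Ube2s and Tuba1b were lost without sham replicate 1 (adjusted p = 0.107 to 0.242). The calls of Mcm6, Stmn1, Tubb5, Ube2s and Tuba1b were lost without sham replicate 2 (adjusted p = 0.0993 to 0.178). The number of these 4 called was 4 with 120 h replicate 1 left out, 3 with replicate 2 of that time left out, 1 and 3 with 168 h replicate 1 or 2 left out, and 0 and 0 with sham replicate 1 or 2 left out.

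A further 29 mitosis genes could be compared with sham replicate 1 alone, and none was called. Of them 12 had an unadjusted p under 0.05, the median log2 fold change was 1.36, and all 4 late pools were above sham replicate 1 in 20. Over all 3621 such genes these values were 591, 0.15 and 1221. Top2a, the topoisomerase of dividing cells, had 18.9 and 12.6 CPM at 120 h and 16.8 and 11.1 CPM at 168 h, against 5.12 CPM in sham replicate 1 (1.53 ± 0.36, adjusted p = 0.0576). Mki67, the proliferation marker, had 22.6 and 6.64 CPM at 120 h and 16.5 and 9.78 CPM at 168 h, against 7.30 CPM in sham replicate 1. The late pools of Top2a were above sham replicate 1, whereas those of Mki67 spanned it. Replicate 1 was the higher pool in 31 of 33 mitosis genes at 120 h and in 31 of 33 at 168 h, against 5778 and 5876 of 11645 genes. The list summed to 513 and 296 CPM at 120 h and 452 and 322 CPM at 168 h, against 225 CPM in sham replicate 1. For 18 further genes of DNA replication and G1/S the median log2 fold change against that pool was 0.55. All 4 late pools were above it in 11 of the 18. Genes scarce in both sham pools could pass the read filter only through the late pools. The medians and counts against sham replicate 1 alone therefore lean to a rise, also over all 3621 genes.

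Lipid genes were higher in part. Lpl, lipoprotein lipase (chr8:68880555-68906932), had 124 and 93.4 CPM at 120 h and 117 and 111 CPM at 168 h, against 38.96 and 24.8 CPM in sham (1.80 ± 0.19, adjusted p = 0.0015; 2.05 with the GC correction). It is among the 36 stable calls. Of 18 tested genes of fatty acid oxidation and PPARalpha targets, 5 were higher and none lower (median 0.14), all 5 also with the GC correction. Cyp4a14, a fatty acid hydroxylase (chr4:115486200-115496158), had 54.1 and 256 CPM at 120 h and 148 and 101 CPM at 168 h, against 6.74 and 16.1 CPM in sham (3.61 ± 0.64, adjusted p = 0.0108). It had the largest estimate of the rises named by rule, and its 120 h replicates differed 4.73-fold. Without sham replicate 2 that estimate was 4.35. Its relative Cyp4a10 had 87.6 and 205 CPM at 120 h and 175 and 145 CPM at 168 h, against 20.7 and 66.8 CPM in sham (1.81 ± 0.45, adjusted p = 0.0295). The sham pools of Cyp4a10 were far apart, and its log2 fold change was 1.18 without sham replicate 1 and 2.86 without sham replicate 2. Vnn1, the pantetheinase vanin, rose by 0.97 on the log2 scale, and Ehhadh and Acadl, enzymes of fatty acid oxidation, were the other calls. The calls of Ehhadh and Acadl were lost without 120 h replicate 2 (adjusted p = 0.0548 to 0.0649). The calls of Cyp4a10, Ehhadh and Acadl were lost without 168 h replicate 1 (adjusted p = 0.0589 to 0.0878). The calls of Cyp4a10, Ehhadh and Acadl were lost without 168 h replicate 2 (adjusted p = 0.0564 to 0.0757). The calls of Cyp4a14, Cyp4a10, Vnn1, Ehhadh and Acadl were lost without sham replicate 1 (adjusted p = 0.124 to 0.282). The calls of Vnn1, Ehhadh and Acadl were lost without sham replicate 2 (adjusted p = 0.0505 to 0.203).

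Of 19 tested genes of fatty acid and triglyceride synthesis, 6 were higher and 1 lower (median 0.53), and 6 of the 7 calls held with the GC correction. Acaca, which makes malonyl-CoA, had 170.0 and 139 CPM at 120 h and 169.7 and 149 CPM at 168 h, against 104 and 81.8 CPM in sham (0.75 ± 0.13, adjusted p = 0.011). Fads2, a fatty acid desaturase, and G6pdx, which supplies NADPH, rose by 0.57 and 1.23 on the log2 scale. Mlxipl, the gene of the carbohydrate-responsive factor ChREBP, fell (-0.44 ± 0.10, adjusted p = 0.021). The calls of Acaca, Fads2, G6pdx and Mlxipl were lost without sham replicate 1 (adjusted p = 0.0634 to 0.232). The calls of Acaca, G6pdx and Mlxipl were lost without sham replicate 2 (adjusted p = 0.0505 to 0.0858). The number called higher was 9 with 120 h replicate 1 left out, 5 with replicate 2 of that time left out, 3 and 4 with 168 h replicate 1 or 2 left out, and 0 and 1 with sham replicate 1 or 2 left out. Pkm, the pyruvate kinase of non-hepatocyte cells and fetal liver, had 48.3 and 75.9 CPM at 120 h and 48.7 and 79.1 CPM at 168 h, against 20.1 and 21.5 CPM in sham (1.60 ± 0.24, adjusted p = 0.00692) and was the 1 of 4 called glycolytic genes, of 17 tested, that held with the GC correction. The call of Pkm was lost without sham replicate 1 (adjusted p = 0.107).

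Conjugation enzymes and targets of the oxidative stress factor NRF2 moved both ways, with 9 higher and 5 lower of 26 tested (median 0.23). All 9 rises and 3 of the 5 falls were called with the GC correction. The rises were Gstm1, Gstm2, Gstm3, Gstm4, Gstm6, Gsta4, Hmox1, Nqo1 and Srxn1. The log2 fold change of Nqo1, a quinone reductase, was 1.58, and 2.45 without sham replicate 2. Gstm3, a glutathione transferase of the mu class (chr3:107963696-107969174), had 163 and 604 CPM at 120 h and 306 and 347 CPM at 168 h, against 67.6 and 68.96 CPM in sham (2.38 ± 0.44, adjusted p = 0.0121). Gstm2 had 121 to 174 CPM in the late pools, against 73.1 and 75.4 CPM in sham (0.98 ± 0.15, adjusted p = 0.00744). Hmox1, which breaks down heme, had 49.9 and 60.2 CPM at 120 h and 49.6 and 66.2 CPM at 168 h, against 31.3 and 22.3 CPM in sham (1.07 ± 0.18, adjusted p = 0.00842). In these genes every late pool was above sham, and reads of the closely related mu-class genes may be split between them. The falls were 2810007J24Rik, Ugt2b1, Ugt2b5, Sult1d1 and Gstp1. Ugt2b1, a glucuronosyltransferase, had 516 to 728 CPM in the late pools, against 1355 and 1020.0 CPM in sham (-0.96 ± 0.16, adjusted p = 0.00851). The call of Nqo1 was lost without 168 h replicate 1 (adjusted p = 0.0546). The call of Nqo1 was lost without 168 h replicate 2 (adjusted p = 0.0595). The calls of Gstm3, Gstm2, Nqo1 and Ugt2b1 were lost without sham replicate 1 (adjusted p = 0.107 to 0.233). The calls of Gstm3, Gstm2 and Hmox1 were lost without sham replicate 2 (adjusted p = 0.0503 to 0.0703). The number called higher was 10 with 120 h replicate 1 left out, 9 with replicate 2 of that time left out, 8 and 8 with 168 h replicate 1 or 2 left out, and 1 and 1 with sham replicate 1 or 2 left out.

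**Figure D2:**
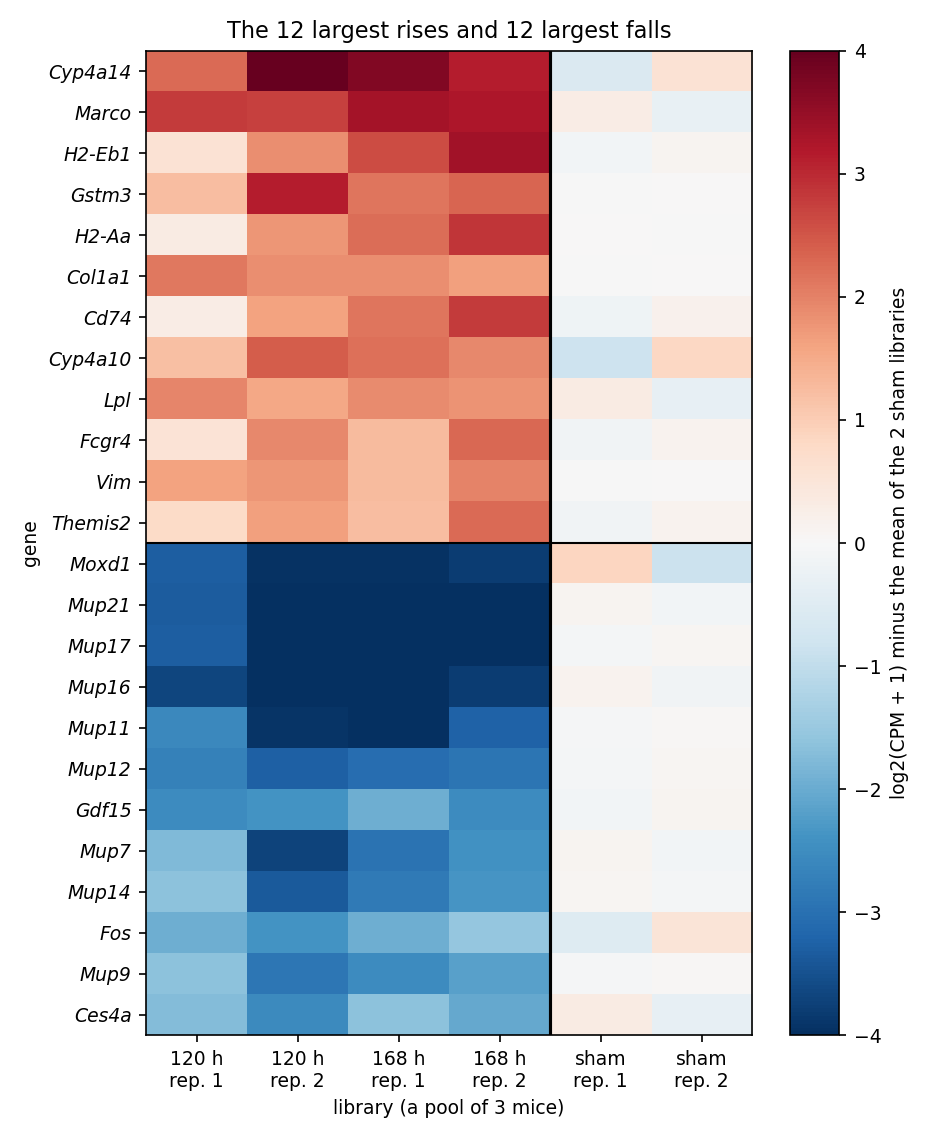
The 12 largest rises and 12 largest falls, late against sham, in each of the 6 libraries (late left of sham). Colour is the log2 level relative to the mean of the sham libraries; late pools lie above both sham pools in the rises and below both in the falls, which the choice of these genes fixes.

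Among the falls were the major urinary protein (Mup) genes, which encode pheromone carriers that the male mouse liver secretes under growth hormone. All 15 Mup genes tested were lower, 14 of them also with the GC correction, with log2 fold changes of -4.40 to -0.91. Together they took 1.05% and 0.630% of the reads at 120 h and 0.694% and 0.719% at 168 h, against 2.89% and 2.79% in sham. The genes lie together on chromosome 4 and are near copies. The share of 50-base windows that also occur in another Mup transcript was 4.000% in Mup6, 13.3% in Mup3, 16.1% in Mup5, 19.3% in Mup21 and 50.1% in Mup20, and 61.6% to 91.7% in the others, so single values of the others are uncertain.

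Mup3 (chr4:62083476-62087317) had 3749 and 2921 CPM at 120 h and 3483 and 3284 CPM at 168 h, against 9540.4 and 9376 CPM in sham (-1.49 ± 0.12, adjusted p = 0.000423). Mup20, the gene of the male pheromone darcin (chr4:62011337-62054143), had 4027 and 2177 CPM at 120 h and 2033 and 1861 CPM at 168 h, against 12007 and 11069 CPM in sham (-2.19 ± 0.27, adjusted p = 0.00285). Mup21 (chr4:62147832-62150841) had 50.3 and 13.5 CPM at 120 h and 18.3 and 14.7 CPM at 168 h, against 545 and 477 CPM in sham (-4.40 ± 0.44, adjusted p = 0.00134). In these 3 genes all late pools were far below sham and 120 h replicate 1 was the highest of them. Mup6 (chr4:60003481-60007274), the member with the fewest shared windows, had 5.25 and 3.40 CPM at 120 h and 3.79 and 2.94 CPM at 168 h, against 15.98 and 15.4 CPM in sham (-2.03 ± 0.21, adjusted p = 0.0015). All 4 are among the 36 stable calls, as are Mup5, Mup9, Mup11, Mup12, Mup16 and Mup17. The largest falls among the near copies were Mup17 (-4.35), Mup16 (-4.21), Mup11 (-3.40), Mup12 (-3.21), Mup7 (-2.55) and Mup14 (-2.45). Without 120 h replicate 1 the log2 fold changes of Mup21, Mup17 and Mup1 were -5.06, -4.97 and -2.81, against -4.40, -4.35 and -2.14 with all pools. The call of Mup1 was lost without 168 h replicate 2 (adjusted p = 0.0592). The calls of Mup1, Mup2, Mup7, Mup10 and Mup14 were lost without sham replicate 1 (adjusted p = 0.066 to 0.174). The calls of Mup1, Mup2 and Mup10 were lost without sham replicate 2 (adjusted p = 0.067 to 0.0998).

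Genes that depend on the male pattern of growth hormone were lower in part. Of 22 tested on this list, which includes Mup1, Mup3 and Mup20, 13 were lower and none higher (median -0.86), 10 of the 13 also with the GC correction. All late pools were below both sham pools in 21 of the 22, against 21.9% of all genes tested. Slco1a1, an organic anion carrier, had 183 and 101 CPM at 120 h and 111 and 83.7 CPM at 168 h, against 425 and 348 CPM in sham (-1.69 ± 0.25, adjusted p = 0.00701). Elovl3, a fatty acid elongase, had 300.2 and 161 CPM at 120 h and 288 and 202 CPM at 168 h, against 698 and 501 CPM in sham (-1.33 ± 0.24, adjusted p = 0.0108). The groups did not overlap in either. The calls of Slco1a1 and Elovl3 were lost without sham replicate 1 (adjusted p = 0.0997 to 0.14). The number of members called lower was 17 with 120 h replicate 1 left out, 11 with replicate 2 of that time left out, 11 and 5 with 168 h replicate 1 or 2 left out, and 2 and 5 with sham replicate 1 or 2 left out. Of 4 tested female-biased genes, Cyp2c69 and Cyp2c40 were lower as counted (-1.04 and -1.11) and none was called with the GC correction. The calls of Cyp2c69 and Cyp2c40 were lost without 120 h replicate 2 (adjusted p = 0.055 to 0.055). The call of Cyp2c40 was lost without 168 h replicate 2 (adjusted p = 0.067). The calls of Cyp2c69 and Cyp2c40 were lost without sham replicate 1 (adjusted p = 0.157 to 0.26). The calls of Cyp2c69 and Cyp2c40 were lost without sham replicate 2 (adjusted p = 0.102 to 0.164). Another 9 female-biased genes could be compared with sham replicate 1 alone. None was called, 4 had an unadjusted p under 0.05, the median log2 fold change was 1.51, and all late pools were above sham replicate 1 in 5. Over all 3621.0 genes tested against that pool alone, 591.0 had such a p, the median was 0.15 and the late pools were above it in 1221.0. Abcd2, a peroxisomal fatty acid transporter, averaged 11.4 CPM in the late pools, against 5.50 CPM in sham replicate 1 (1.05 ± 0.24, adjusted p = 0.0559). Cyp2b9, a cytochrome P450 of female liver, had 3.61 and 29.2 CPM at 120 h and 7.30 and 7.603 CPM at 168 h, against 0.128 CPM in sham replicate 1 (adjusted p = 0.108). Cyp2a4, another, had 5.83 and 29.6 CPM at 120 h and 6.53 and 6.73 CPM at 168 h, against 0.768 CPM in sham replicate 1 (adjusted p = 0.133). In these 3 genes the late pools were above sham replicate 1, and 120 h replicate 2 was the highest. The level of all 9 in sham replicate 2 is unknown. The 0.128 CPM of Cyp2b9 in sham replicate 1 is 1 read. Genes scarce in both sham pools could pass the read filter only through the late pools. The values of these 9 genes therefore lean to a rise, and no rise of the list is read from them. Y-linked genes moved beside this list: Eif2s3y had 13.2 and 13.1 CPM at 120 h and 14.1 and 12.05 CPM at 168 h, against 33.3 and 29.2 CPM in sham, and Ddx3y had 19.3 and 14.5 CPM at 120 h and 13.1 and 11.3 CPM at 168 h, against 33.4 and 35.97 CPM in sham. The log2 fold change of Eif2s3y was -1.23 as counted and -0.65 with the GC correction. The shifts of Kdm5d and Uty were smaller. Kdm5d had 8.25 and 5.16 CPM at 120 h and 5.59 and 7.89 CPM at 168 h, against 11.8 and 10.7 CPM in sham. Uty had 8.02 and 7.34 CPM at 120 h and 4.38 and 3.73 CPM at 168 h, against 10.3 and 9.40 CPM in sham. Xist, the RNA of the inactive X chromosome, was at most 0.213 CPM in the late pools, against 0 in sham replicate 1. The part of these genes in the result was not tested.

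**Figure D3:**
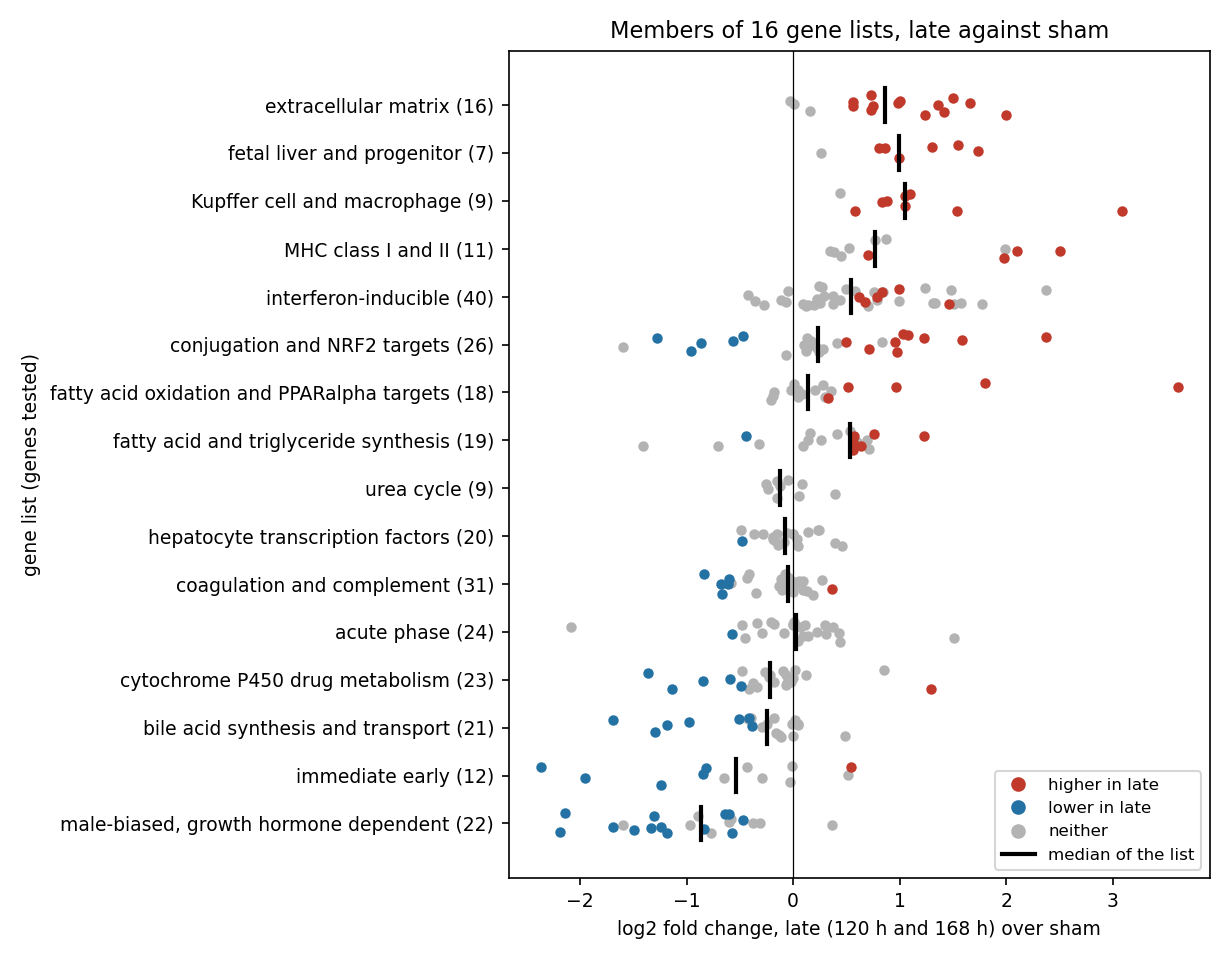
Log2 fold change, late over sham, of each tested member of the gene lists, with the number tested in brackets. Red points were called higher, blue points lower and grey points neither, and bars are list medians, from 1.05 for the Kupffer cell and macrophage markers to -0.86 for the male-biased genes.

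The calls among genes of bile acid synthesis and transport and among cytochrome P450 genes of drug metabolism were mostly falls. Of 21 tested genes of bile acid synthesis and transport, 7 were lower and none higher (median -0.24), and Slco1a1, Slco1b2 and Nr0b2 were called with the GC correction. Slco1b2, an uptake carrier for bile acids and drugs, had 401 and 315 CPM at 120 h and 259.6 and 229 CPM at 168 h, against 768 and 711 CPM in sham (-1.30 ± 0.19, adjusted p = 0.00654). Nr0b2, the corepressor SHP that the bile acid receptor induces, had 12.6 and 16.1 CPM at 120 h and 26.2 and 28.3 CPM at 168 h, against 38.6 and 43.4 CPM in sham (-0.98 ± 0.27, adjusted p = 0.0428). All late pools of both were below sham. The call of Nr0b2 was lost without 120 h replicate 2 (adjusted p = 0.0721). The calls of Slco1b2 and Nr0b2 were lost without sham replicate 1 (adjusted p = 0.093 to 0.205). The call of Nr0b2 was lost without sham replicate 2 (adjusted p = 0.169). Of 23 tested cytochrome P450 genes of drug metabolism, 5 were lower and 1 higher, against 9.37% and 5.58% of all genes tested. Of these calls 3 falls and the rise were called with the GC correction. The median GC content of these P450 genes was 43.0%. In the decile of all genes from 41.4% to 43.8% GC, 23.5% were called lower as counted. Cyp2c37 had 53.98 and 58.9 CPM at 120 h and 68.5 and 84.1 CPM at 168 h, against 161 and 180.5 CPM in sham (-1.36 ± 0.16, adjusted p = 0.00237). Cyp3a25 had 172 to 206 CPM in the late pools, against 344 and 347 CPM in sham (-0.85 ± 0.10, adjusted p = 0.0028; -0.44 with the GC correction). Cyp2a5, a coumarin hydroxylase, was the 1 rise, with 323 to 611 CPM in the late pools, against 191 and 163 CPM in sham (1.30 ± 0.26, adjusted p = 0.015). The call of Cyp2a5 was lost without sham replicate 1 (adjusted p = 0.131). The call of Cyp2a5 was lost without sham replicate 2 (adjusted p = 0.0937). Of 19 tested genes of gluconeogenesis and amino acid breakdown, only Tdo2 was called. Tdo2, which opens the ring of tryptophan, had 619 and 514 CPM at 120 h and 502 and 479.9 CPM at 168 h, against 982 and 1101 CPM in sham (-0.98 ± 0.12, adjusted p = 0.00322; -0.54 with the GC correction). Cyp2c37, Cyp3a25 and Tdo2 are among the 36 stable calls.

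Most genes of several liver programmes had 95% intervals within 2-fold of sham, as had 87.6% of all genes tested. The intervals of all 9 urea cycle genes lay there, as did those of 19 of 20 hepatocyte transcription factors, 30 of 31 coagulation and complement genes, 16 of 17 glycolytic genes, 17 of 19 genes of gluconeogenesis and amino acid breakdown and 13 of 14 pericentral and Wnt target genes. These shares lie near or above that of all genes tested, and the difference was not tested. No urea cycle gene was called (median -0.12). The hepatocyte transcription factor Onecut2 (-0.48 ± 0.14, adjusted p = 0.049) and the pericentral gene Slc1a2 (-0.45 ± 0.13, adjusted p = 0.0435), a glutamate transporter, were lower as counted and neither was called with the GC correction. The call of Onecut2 was lost without 120 h replicate 2 (adjusted p = 0.0711). The calls of Onecut2 and Slc1a2 were lost without 168 h replicate 1 (adjusted p = 0.0736 to 0.0849). The calls of Onecut2 and Slc1a2 were lost without 168 h replicate 2 (adjusted p = 0.058 to 0.0991). The calls of Onecut2 and Slc1a2 were lost without sham replicate 1 (adjusted p = 0.145 to 0.401). The calls of Onecut2 and Slc1a2 were lost without sham replicate 2 (adjusted p = 0.0754 to 0.234). Of the coagulation and complement genes, 5 were lower and 1 higher, and 3 of the falls, C9 among them, were called with the GC correction. C9, a component of the membrane attack complex, had 800.4 and 619 CPM at 120 h and 583 and 594 CPM at 168 h, against 1277 and 1042 CPM in sham (-0.84 ± 0.15, adjusted p = 0.011). The call of C9 was lost without sham replicate 1 (adjusted p = 0.145). Of 24 acute phase genes, 1 was lower (Serpina3k, -0.57 ± 0.14, adjusted p = 0.0312, called with the GC correction too) and none higher, and the intervals of 15 lay within 2-fold. The call of Serpina3k was lost without 168 h replicate 2 (adjusted p = 0.067). The call of Serpina3k was lost without sham replicate 1 (adjusted p = 0.201). The call of Serpina3k was lost without sham replicate 2 (adjusted p = 0.124). Saa3, a serum amyloid A gene, had 5.13 and 25.8 CPM at 120 h and 5.01 and 10.8 CPM at 168 h, against 12.6 and 86.5 CPM in sham, and its groups overlapped.

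Several immediate early genes were lower in late liver than in sham. Of 22 listed, 12 were tested, 5 were lower and 1 higher (median -0.54), and all 6 calls held with the GC correction. The late pools were below both sham pools in 7 of the 12 and above both in 2, against 21.9% and 21.0% of all genes tested. Fos, a subunit of AP-1 (chr12:85473890-85477274), had 2.57 and 1.64 CPM at 120 h and 2.56 and 3.71 CPM at 168 h, against 8.62 and 18.7 CPM in sham (-2.37 ± 0.34, adjusted p = 0.00613). Egr1, a zinc finger factor, had 55.6 and 27.7 CPM at 120 h and 91.1 and 107 CPM at 168 h, against 264 and 283 CPM in sham (-1.96 ± 0.38, adjusted p = 0.0146). Zfp36, which destabilises cytokine mRNAs, had 60.3 and 63.9 CPM at 120 h and 69.3 and 80.1 CPM at 168 h, against 123 and 123 CPM in sham (-0.85 ± 0.11, adjusted p = 0.00443). All late pools of these genes were below sham, and the Fos level of the sham pools differed between them. Without sham replicate 2 the log2 fold change of Fos was -1.72. Ier2 and Btg2 were the other falls and Jund was the rise. The call of Jund was lost without 168 h replicate 1 (adjusted p = 0.0555). The calls of Egr1, Zfp36, Ier2 and Jund were lost without sham replicate 1 (adjusted p = 0.0612 to 0.237). The calls of Egr1, Ier2 and Btg2 were lost without sham replicate 2 (adjusted p = 0.0674 to 0.135). The number called lower was 5 with 120 h replicate 1 left out, 5 with replicate 2 of that time left out, 5 and 5 with 168 h replicate 1 or 2 left out, and 2 and 2 with sham replicate 1 or 2 left out.

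Gdf15, a stress-induced hormone of the TGF-beta family (chr8:70629393-70632470), had 3.15 and 3.52 CPM at 120 h and 5.12 and 3.16 CPM at 168 h, against 21.1 and 24.7 CPM in sham (-2.61 ± 0.20, adjusted p = 0.000423; -2.79 with the GC correction). Every late pool was far below sham. It belongs to a list of TGF-beta, activin and Hippo genes, of which 9 were tested, 2 were higher and 2 lower. Inhbe, which encodes an activin subunit, rose by 1.06 and Tgfb1 by 0.94 on the log2 scale, also called with the GC correction. The other fall was Tgfbr1, a TGF-beta receptor (-0.86 ± 0.21, adjusted p = 0.0275), which was not called with it (adjusted p = 0.123). The call of Tgfbr1 was lost without 168 h replicate 1 (adjusted p = 0.0546). The calls of Inhbe, Tgfb1 and Tgfbr1 were lost without sham replicate 1 (adjusted p = 0.0892 to 0.211). The calls of Tgfb1 and Tgfbr1 were lost without sham replicate 2 (adjusted p = 0.0505 to 0.0968). Moxd1 (chr10:24223517-24302783), a monooxygenase-like gene, had 5 and 0 reads at 120 h and 0 and 1 reads at 168 h, against 216 and 61 reads in sham. Its fitted log2 fold change of -6.55 depends on the prior count and was -8.40 to -5.39 with 1 library left out. The 61 reads lie near the lowest listed count of that table, 52. Over the course Moxd1 had 2.23 and 1.67 CPM at 2 h and 28.6 and 9.52 CPM at 4 h, so it also swung between early times. Ces4a, a carboxylesterase gene, had 4.43 and 2.11 CPM at 120 h and 4.79 and 3.38 CPM at 168 h, against 21.7 and 13.6 CPM in sham (-2.26 ± 0.28, adjusted p = 0.00319). The call of Ces4a was lost without sham replicate 1 (adjusted p = 0.0612). Gdf15 and Moxd1 are among the 36 stable calls.

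Interferon-inducible genes divided the late pools by replicate rather than by time. Interferons act on such genes through the interferon-stimulated response element. Its core, GAAA, any 2 bases and GAAA again on either strand, was searched in the RefSeq promoters of GRCm38.p6, from 250 bases before to 50 bases after the start of each gene. It was present in 19 of 35 list members with a promoter (54.3%), against 3.99% of 27025 genes. The promoters of Igtp (chr11:58199306-58199605, plus strand), Bst2 (chr8:71537423-71537722, minus strand) and Psme1 (chr14:55578244-55578543, plus strand), 3 of the 5 members described below, are shown 5′ to 3′ along the gene because they hold the core, marked in capitals. In Igtp it starts 34 bases before the start of the gene, in Bst2 2 overlapping matches start 130 bases before it, and in Psme1 it lies inside the gene.
Igtp: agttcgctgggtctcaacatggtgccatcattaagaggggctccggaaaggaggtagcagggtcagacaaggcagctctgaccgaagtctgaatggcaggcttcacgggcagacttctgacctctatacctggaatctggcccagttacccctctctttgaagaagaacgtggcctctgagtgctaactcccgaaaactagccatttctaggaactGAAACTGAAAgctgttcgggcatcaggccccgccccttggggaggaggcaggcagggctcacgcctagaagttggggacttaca
Bst2: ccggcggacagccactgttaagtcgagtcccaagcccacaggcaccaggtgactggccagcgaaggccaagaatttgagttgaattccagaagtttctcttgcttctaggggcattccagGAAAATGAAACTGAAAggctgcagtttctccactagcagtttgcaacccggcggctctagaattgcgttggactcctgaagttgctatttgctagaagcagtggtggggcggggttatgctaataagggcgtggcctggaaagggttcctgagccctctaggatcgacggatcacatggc
Psme1: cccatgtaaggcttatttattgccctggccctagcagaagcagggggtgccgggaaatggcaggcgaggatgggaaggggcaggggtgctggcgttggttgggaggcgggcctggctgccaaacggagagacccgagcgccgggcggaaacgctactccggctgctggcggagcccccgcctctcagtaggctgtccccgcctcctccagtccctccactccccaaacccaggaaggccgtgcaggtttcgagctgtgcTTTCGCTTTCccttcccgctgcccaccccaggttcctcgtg
The promoter of Lgals3bp holds no match in this window. A match describes the letters alone.

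Of 40 tested interferon-inducible genes, 6 were higher and none lower (median 0.54), and none was called with the GC correction. Igtp, an interferon-induced GTPase, had 59.9 and 438 CPM at 120 h and 83.2 and 394 CPM at 168 h, against 38.7 and 55.6 CPM in sham (2.37 ± 0.80, adjusted p = 0.0743). Replicate 2 was 7.32 times replicate 1 at 120 h and 4.73 times at 168 h. Iigp1, another interferon-induced GTPase, had 333 and 1394 CPM at 120 h and 294 and 1096 CPM at 168 h, against 465 and 495 CPM in sham (0.70 ± 0.57, adjusted p = 0.427). Its replicate 1 pools lay below sham and its replicate 2 pools above, and without replicate 2 of both late times its log2 fold change was -0.61. Psme1, a proteasome activator subunit, had 146 and 209 CPM at 120 h and 143 and 235 CPM at 168 h, against 94.9 and 111 CPM in sham (0.83 ± 0.21, adjusted p = 0.0312). Bst2, the virus-tethering protein tetherin, had 198 and 256 CPM at 120 h and 134 and 225 CPM at 168 h, against 113 and 123 CPM in sham (0.79 ± 0.22, adjusted p = 0.0428). Lgals3bp, a secreted glycoprotein, had 168 and 249 CPM at 120 h and 169.6 and 241 CPM at 168 h, against 116 and 144 CPM in sham (0.67 ± 0.19, adjusted p = 0.0452). In the last 3 genes both replicates were above sham, and the other calls were Oasl2, Psme2 and Psmb8. The calls of Psme1, Bst2 and Lgals3bp were lost without 120 h replicate 2 (adjusted p = 0.0575 to 0.078). The calls of Psme1, Bst2 and Lgals3bp were lost without 168 h replicate 2 (adjusted p = 0.0523 to 0.0924). The calls of Psme1, Bst2 and Lgals3bp were lost without sham replicate 1 (adjusted p = 0.263 to 0.347). The calls of Psme1, Bst2 and Lgals3bp were lost without sham replicate 2 (adjusted p = 0.0993 to 0.142). The number of list members called higher was 15 with 120 h replicate 1 left out, 0 with replicate 2 of that time left out, 10 and 0 with 168 h replicate 1 or 2 left out, and 0 and 0 with sham replicate 1 or 2 left out.

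Replicate 2 was the higher pool for all 40 genes at 120 h and for all 40 at 168 h, with median log2 ratios of 0.80 and 0.93, against 4004 and 3918 of all 8025 genes. It was also the higher sham pool for 38 of the 40, with a median log2 ratio of 0.35. The replicate numbers name pools, and what the replicate 2 pools share was not tested.

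**Figure D4:**
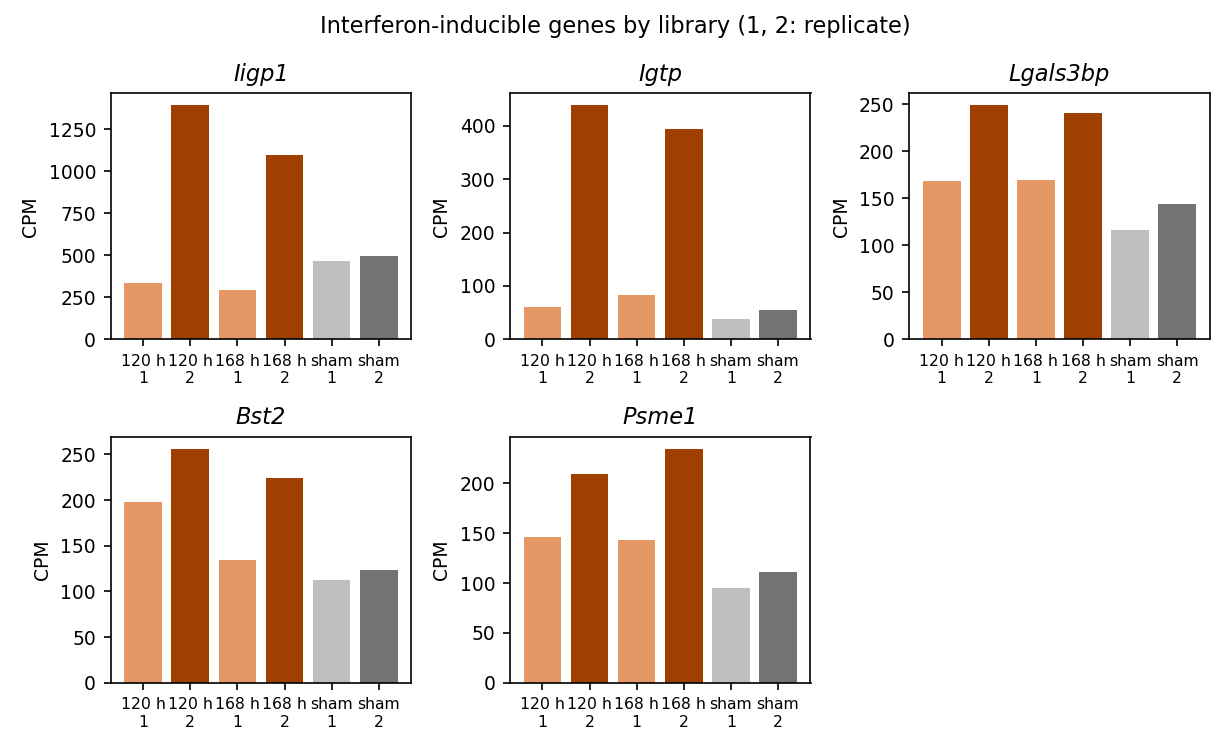
CPM of 5 interferon-inducible genes with high means in late liver, by pool (120 h and 168 h left of sham). In Igtp the replicate 2 pools reach 438 and 394 CPM, against 38.7 and 55.6 CPM in sham.

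Some antigen presentation genes were also higher. Of 11 tested genes of MHC class I and II, 4 were higher and none lower (median 0.77), and none was called with the GC correction. At 120 h alone 0 of the 11 were called higher than sham, against 1.18% of all genes tested. At 168 h alone 5 were, against 5.51%. The direct test of 168 h against 120 h called 0 genes. Cd74, the invariant chain of class II molecules, had 94.3 and 238 CPM at 120 h and 341 and 537 CPM at 168 h, against 67.9 and 85.8 CPM in sham (1.98 ± 0.55, adjusted p = 0.043). H2-Eb1, a class II beta chain, had 19.5 and 48.04 CPM at 120 h and 81.8 and 139 CPM at 168 h, against 11.6 and 13.7 CPM in sham (2.51 ± 0.67, adjusted p = 0.0382). H2-Aa, a class II alpha chain, had 24.95 and 69.5 CPM at 120 h and 96.4 and 149.6 CPM at 168 h, against 20.2 and 19.4 CPM in sham (2.10 ± 0.58, adjusted p = 0.0407). In these 3 genes the replicate 2 pool was the higher one at each time and both 168 h pools were above both 120 h pools. Fcgr4, an Fc receptor of myeloid cells, had 13.1 and 35.04 CPM at 120 h and 21.7 and 45.8 CPM at 168 h, against 7.74 and 9.44 CPM in sham (1.75 ± 0.46, adjusted p = 0.0347). Themis2, a signalling protein of myeloid and B cells, had 11.3 and 21.3 CPM at 120 h and 15.9 and 33.5 CPM at 168 h, against 5.49 and 6.92 CPM in sham (1.72 ± 0.42, adjusted p = 0.0269). Both showed the same order of replicates. With the GC correction Themis2 was called (adjusted p = 0.0485) and Fcgr4 was not (adjusted p = 0.0552). The calls of Cd74, H2-Aa and Fcgr4 were lost without 120 h replicate 2 (adjusted p = 0.052 to 0.0595). The calls of Cd74, H2-Eb1 and H2-Aa were lost without 168 h replicate 1 (adjusted p = 0.0695 to 0.0803). The calls of Cd74, H2-Eb1, H2-Aa and Fcgr4 were lost without 168 h replicate 2 (adjusted p = 0.0541 to 0.0681). The calls of Cd74, H2-Eb1, H2-Aa, Fcgr4 and Themis2 were lost without sham replicate 1 (adjusted p = 0.23 to 0.294). The calls of Cd74, H2-Eb1, H2-Aa, Fcgr4 and Themis2 were lost without sham replicate 2 (adjusted p = 0.101 to 0.167). The number of MHC genes called higher was 8 with 120 h replicate 1 left out, 1 with replicate 2 of that time left out, 3 and 0 with 168 h replicate 1 or 2 left out, and 0 and 0 with sham replicate 1 or 2 left out.

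Whether 168 h stood nearer to sham than 120 h was not settled by the counts. Against sham, 95 genes were higher (1.18%) and 118 lower (1.47%) at 120 h, 2.65% in all. At 168 h 442 were higher (5.51%) and 808 lower (10.1%), 15.6% in all, and the sham pools are shared. With sham replicate 1 left out the counts were 6 and 12 at 120 h and 2 and 3 at 168 h, and with sham replicate 2 left out they were 2 and 5 at 120 h and 73 and 236 at 168 h. At 120 h they were 208 and 314 without replicate 1 of that time and 28 and 31 without replicate 2. At 168 h they were 206 and 398 without replicate 1 of that time and 37 and 32 without replicate 2. The direct test of 168 h against 120 h called no gene in edgeR (0 higher, 0 lower), with 470 genes (5.86%) at an unadjusted p under 0.05, while DESeq2 called 5 higher and 1 lower. Without 120 h replicate 1 edgeR called 3 higher and 1 lower. Over the genes, the standard deviation of the log2 ratio of replicate 2 to replicate 1 was 0.348 at 120 h and 0.295 at 168 h, against 0.273 in sham.

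**Figure D5:**
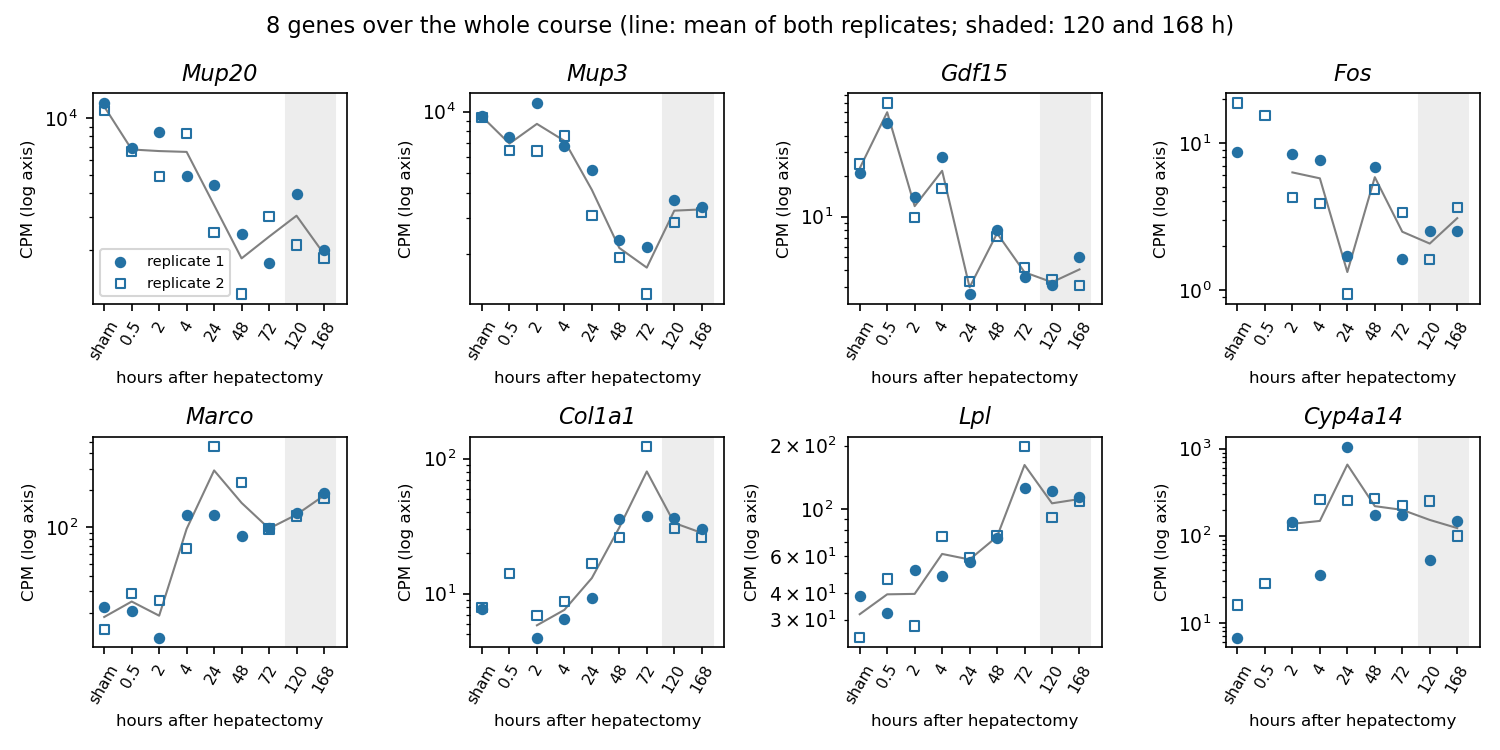
CPM of 8 genes in the pools of the time course on a log axis, from sham to 168 h after hepatectomy, with a line through the means. Fos, Col1a1 and Cyp4a14 have no value in 0.5 h replicate 1, whose table also ends early, and no mean at 0.5 h. Mup20 and Mup3 lie lower and Marco, Col1a1, Lpl and Cyp4a14 higher at 120 h and 168 h than in sham.

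The course shows where the late levels stand, as means of 2 pools and with no test. Mup20 averaged 11523 CPM in sham, 3466 CPM at 24 h, 1809.8 CPM at 48 h, 2357 CPM at 72 h, 3045 CPM at 120 h and 1911 CPM at 168 h. Mup3 averaged 9446 CPM in sham, 2149.6 CPM at 48 h, 1723 CPM at 72 h, 3273 CPM at 120 h and 3319 CPM at 168 h. Mup3 was thus between its lowest mean and sham, whereas Mup20 at 168 h was near its lowest. Col1a1 averaged 7.82 CPM in sham, 13.1 CPM at 24 h, 30.9 CPM at 48 h, 80.3 CPM at 72 h, where the pools had 37.9 and 123 CPM, 33.4 CPM at 120 h and 28.2 CPM at 168 h. Marco averaged 18.5 CPM in sham, 96.8 CPM at 4 h, 291 CPM at 24 h, 158 CPM at 48 h, 97.4 CPM at 72 h, 127 CPM at 120 h and 181 CPM at 168 h. The 24 h pools of Marco were far apart, with 126 and 455 CPM, and the lower one was below both 168 h pools. Both 168 h pools of Marco were above both 72 h pools, whereas its 48 h pools, with 84.8 and 231 CPM, lay on either side of the 168 h pools. Cd74 averaged 76.7 CPM in sham, 161 CPM at 0.5 h, 93.4 CPM at 2 h, 118 CPM at 4 h and 40.3 CPM at 24 h. It then averaged 31.8 CPM at 48 h, 33.7 CPM at 72 h, 163 CPM at 120 h and 431 CPM at 168 h, so its late level followed a low one. Its mean at 120 h was near that at 0.5 h.

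Genes missing from the table of sham replicate 2 were tested against sham replicate 1 alone, a lone pool assumed to vary like the late ones. Those scarce in that pool too could pass the read filter only through the late pools, so rises entered more readily than falls. Of 3621 such genes 17 were higher (0.469%), and for 10 of them (0.276%) all late pools were also above the bound of sham replicate 2. Eln, the elastin gene, had 10.95 and 8.74 CPM at 120 h and 11.2 and 9.99 CPM at 168 h, against 1.28 CPM in sham replicate 1 (2.98 ± 0.36, adjusted p = 0.0149). Slc16a5, a transporter gene of the monocarboxylate family, had 12.7 and 25.4 CPM at 120 h and 11.95 and 10.9 CPM at 168 h, against 1.66 CPM in sham replicate 1 (3.18 ± 0.64, adjusted p = 0.0466). Col5a2, a minor fibrillar collagen, had 15.8 and 10.02 CPM at 120 h and 11.8 and 9.34 CPM at 168 h, against 3.33 CPM in sham replicate 1 (1.82 ± 0.38, adjusted p = 0.0492). Each late pool was above the bound in these genes. H2-Q1, a class I gene with close copies, had 11.4 and 12.9 CPM at 120 h and 25.1 and 20.1 CPM at 168 h, against 2.43 CPM in sham replicate 1 (2.83 ± 0.55, adjusted p = 0.0439). Tifab and Fxyd5 had log2 fold changes of 1.97 and 1.94, and the other 4 were Evl, Uap1l1, Chrna4 and Tuba8. The count was 1 with the GC correction, 57 with 120 h replicate 1 left out, 4 with replicate 2 of that time left out, and 1 with either 168 h pool left out. Another 8 genes were lower than sham replicate 1 (0.221%), and their level in sham replicate 2 is unknown.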

How the data were processed

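The deposited tables give, per the file headers, the number of uniquely mapped reads of each gene as a raw count. The submitters' processing notes name the build mm10. The aligner and counting tool were not given in the sources used here. Sample labels gave the groups, and 0 other columns of per-sample values were present. Genes with 10 reads in at least 2 libraries and 15 in total entered the test, made in edgeR 4.0.16 (R 4.3.3) with TMM factors, the quasi-likelihood test and Benjamini-Hochberg adjustment, on the 6 late and sham libraries, which held 7.78 to 9.16 M reads. Values are CPM. Marker sums, Y-linked genes and courses are scaled over all 18 libraries, with factors from the genes listed in both tables that end early. The second such table is that of 0.5 h replicate 1, which lists 4908 genes, the lowest with 157 reads. DESeq2 1.42.0 and limma 3.58.1 were alternatives. The GC correction entered a lowess trend of each library on gene GC content as an offset. Tested on simulated counts, late against sham recovered 98% of changes of 2-fold (4 of 202 calls were false). The test against sham replicate 1 alone recovered 52% of changes of 2-fold and 85% of changes of 4-fold. A gene not called in that test may thus still have changed. Each simulated gene took its spread from a trend over all genes, with none of its own, so these shares may be too high for the real counts. With a simulated GC trend, 341 of 535 calls were false without the correction, and 11 of 208 with it. That trend came from the same lowess fit that the correction removes, so the result cannot show that the correction suits the real counts. The simulated counts were drawn independently in each pool, with no deviation shared between pools.

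Named by rule were the 12 largest rises and falls (called, mean of 10 CPM or more in the higher group, late pools all on 1 side of sham), the 6 interferon-inducible genes with the highest late mean (1 of them is not reported here), the largest rises among genes unlisted in sham replicate 2, and up to 4 members of each list by p. Other members, the Mup family and the 36 stable calls were named after their values were seen. The members and gene lists were chosen with earlier results of these data known. Sequences and coordinates come from RefSeq, GRCm38.p6. Groups share replicate numbers, but no label says that they pair the pools, so the main test had no block.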

Additional observations from a re-analysis of the deposited data

Results flagged for a closer look

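In 5 of the 156 genes examined, 1 of the 4 late pools stood far from the others by a test of the gap to the nearest pool, which chance passes in about 1 of 20 such groups. C9 had 800.4 CPM in 120 h replicate 1 and 583 to 619 CPM in the other late pools. Hba-a1, a globin gene, had 16.4 CPM in 120 h replicate 1 and 12.4 to 13.04 CPM in the others. Mup20 had 4027 CPM in 120 h replicate 1 and 1861 to 2177 CPM in the others. Mup21 had 50.3 CPM in 120 h replicate 1 and 13.5 to 18.3 CPM in the others. Nid1, a basement membrane protein gene, had 32.9 CPM in 168 h replicate 2 and 46.8 to 48.7 CPM in the others. In 4 of the 5 genes the pool that stood apart was 120 h replicate 1, with the related genes Mup20 and Mup21 among them. The 5 of 156 are a smaller share than the 1 of 20 that chance passes, so no pattern is read from them.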

How the results depend on the processing

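Leaving out 1 library at a time gave 18 to 589 genes higher and 28 to 1143 lower for late against sham, 2 to 208 and 5 to 314 for 120 h against sham, 2 to 540 and 3 to 1054 for 168 h against sham, 0 to 3 and 0 to 1 for 168 h against 120 h, and 1 to 57 for genes unlisted in sham replicate 2. Other settings gave these counts of higher and lower genes for late against sham: 178 and 228 with 17 libraries in the fit, 17 and 23 in a test against a 1.5-fold change, 228 and 368 with unlisted genes as 0 reads, 225 and 342 without replicate 2 of both late times, 296 and 245 with the GC correction, and 277 and 220 with GC and length corrected. With a mean of at least 20 CPM required, 286 genes were higher. For 120 h against sham they were 185 and 224 in DESeq2, 25 and 21 with 17 libraries and 63 and 44 with the GC correction, and 73 (only the groups compared) and 55 (GC and length corrected) were lower. For 168 h against sham they were 137 and 175 with 17 libraries and 282 and 210 with the GC correction, and 201 were lower with GC and length corrected. DESeq2 called 5 and 1 for 168 h against 120 h. The 10 genes unlisted in sham replicate 2 became 1 with the GC correction, 38 in DESeq2, 19 in limma-trend, 26 with no filter on low counts, 1 with 16 libraries and 70 without replicate 2 of both late times. The cause was not tested. Genes within 2-fold of sham numbered 6180 to 7153 with 1 library left out.

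Same-numbered pools deviated together weakly (correlations of 0.266, 0.347 and 0.228 across 8025 genes), with only 2 numbers, so they were not treated as paired. With the replicate number as a block, 626 genes were higher and 968 lower in late liver, 516 and 387 with the GC correction too, 351 and 470 at 120 h, 772 and 1150 at 168 h, and 1 and 2 for 168 h against 120 h.

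Of 153 called genes examined one by one, 121 lost the call without sham replicate 1, 97 without sham replicate 2 and 52 with the GC correction. Signs turned in Iigp1, to -0.61 without replicate 2 of both late times (adjusted p = 0.0227), and in Onecut2, to 0.042 with GC and length corrected. The GC, GC and length, block with GC, 20 CPM and replicate 1 alternatives were chosen after seeing the data. With 2 sham pools, 1 of them incomplete, depth limits what can be said of genes scarce in sham.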

Other observations

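The lists not described so far are small and are read against the 15% of all genes tested that were called. Each gene named from them lost its call without at least 1 of the sham pools. Of 22 tested genes of cholesterol synthesis and uptake, 3 were higher, Pmvk and Dhcr7 among them, and none lower, and 1 of the 3, neither of these, was called with the GC correction. Of 11 heat shock genes, Hspa1b and Bag3 were higher, and Hspa1b was called with the GC correction. Hspa1b, an inducible HSP70 with a near-identical copy, had 22.3 and 17.9 CPM at 120 h and 22.1 and 19.3 CPM at 168 h, against 7.37 and 10.3 CPM in sham. Its late pools were all above sham. Of 10 genes of metallothionein and iron handling, Hmox1, Ftl1 and Slc40a1 were higher and Slc30a1 lower, of which Hmox1 and Slc40a1 were called with the GC correction. In the circadian list Rora and Clock were lower of 16 tested, and neither was called with the GC correction; the labels used here give no clock time. Of 14 genes of the IGF axis and growth hormone signalling, Ghr, the growth hormone receptor, was lower. It had 395 and 281 CPM at 120 h and 355 and 351 CPM at 168 h, against 585 and 515 CPM in sham, and was not called with the GC correction. Of 7 CDK inhibitors and p53 targets, Trp53inp1 and Btg2 were lower, Btg2 also with the GC correction. Dnajc3 was lower of 16 genes of ER stress, Npm1 of 15 of ribosome biogenesis and Apob of 13 apolipoproteins. Dnajc3 and Npm1 were called with the GC correction and Apob was not. Among the 8 hepatocyte markers Ttr was higher, also with the GC correction, and Apob lower. Of 4 tested erythroid markers, Beta-s and Hba-a1 were higher as counted and none was called with the GC correction. Neither tested cholangiocyte marker was called, and the markers of adipocytes were not tested.

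Other motifs were searched on both strands of the same promoter windows. The letters TTTGAA were present in 19 of 29 mitosis genes with a promoter (65.5%), against 20.2% of 27025 genes. CACGTG was present in 5 of 17 circadian genes (29.4%, against 8.09%), TTATGNAA in 2 of 17 (11.8%, against 3.99%) and TTCNNNGAA in 1 of 13 male-biased genes (7.69%, against 9.55%). These are descriptions of letters alone.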
